A study of Danio rerio with 6 samples.

Results

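The enzymes of glycolysis were followed along the pathway in homozygous IT325 ikzf1 mutant zebrafish and in their wild-type siblings. The set holds 1 gene for each of 10 enzymes. The genes, chosen by name with earlier results of these data known, are hk1, gpia, pfkla, aldoaa, tpi1b, gapdh, pgk1, pgam1a, eno1a and ldha. They are 10 of the 32105 genes in the count table, and all 10 were among the 17828 genes abundant enough to be tested. Poly-A selected RNA was sequenced from 3 mutant and 3 wild-type libraries. The study describes all of them as larvae at 5 days post fertilization (dpf), and this age was not checked here. The mutants carried IT325 (allele t24980) on both chromosomes, an ENU-induced nonsense allele whose protein keeps the zinc fingers that bind DNA and lacks C-terminal zinc fingers. The labels give the tissue of both groups as whole body and the strain as a mix of wild-type strains, while the study's methods name Tüpfel long fin/Ekkwill. The methods give 3 individual fish per genotype, and genotypes were known before the RNA was extracted.

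Glycolysis splits glucose into pyruvate in the cytosol. The first steps spend ATP to trap and cleave the sugar, and the later steps, which begin with GAPDH, yield NADH and ATP. Lactate dehydrogenase then reduces pyruvate to lactate and regenerates the NAD+ that GAPDH needs. Zebrafish often keep several genes for a step, so that the level of a single gene is not the level of the step. In mammals, red blood cells that have lost their mitochondria depend on this pathway for ATP.

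Levels are given as CPM, the counts of a gene per 1000000 counts of all tested genes after TMM scaling of the libraries, and a gene is said to have risen or fallen where the Benjamini-Hochberg adjusted p of edgeR's quasi-likelihood test over all genes tested was below 0.05. The libraries held 37390073 to 53279243 counts each, and the members together took 0.234 to 0.250% of the counts in mutants and 0.244 to 0.263% in wild type. The transcript of ikzf1 (ENSDARG00000013539) itself was at 1167, 1767 and 1149 CPM in mutants against 276, 306 and 299.9 CPM in wild type, 4.63-fold higher in mutants. The label whole body was checked against marker lists. The summed level of 9 skeletal muscle markers was 4.42 to 8.20 CPM in mutants against 30.8 to 52.1 CPM in wild type, where mybpc2b made up most of it. Of the 6 retina and lens markers rho and gnat1 were at 0 in every library, and the neural, liver, epidermal and pancreatic lists each summed to at most 30.1 CPM. By contrast, the neutrophil markers summed to 23126 CPM or more in every library, so transcripts of muscle, brain, liver, skin, pancreas and eye were close to absent while those of blood cells were abundant. These values go against the label, and the levels given here are not taken as those of whole larvae. The stated larval age was not tested with any marker, so it is the study's description only. The kidney tubule list summed to 233 to 356 CPM in mutants and to 99.98 to 130.2 CPM in wild type, most of it from slc20a1a.

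The 5 member genes from hexokinase to triosephosphate isomerase did not pass the test in either direction. All 5 member genes from GAPDH to lactate dehydrogenase passed it, and they moved in opposite directions. gapdh, pgam1a and ldha fell, by 1.13, 0.84 and 0.88 on the log2 scale. pgk1 and eno1a, which encode the enzymes just before and just after Pgam1a, rose by 0.39 and 0.99. In all, 5 of the 10 members were called, 2 higher and 3 lower, beside 33.9% of all genes tested, of which 17.5% were higher and 16.4% lower. The median log2 fold change was -0.20 over the members and -0.01 over all genes tested. No test was made of the set as a whole or of the contrast between the early and the late enzymes.

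**Figure D1:**
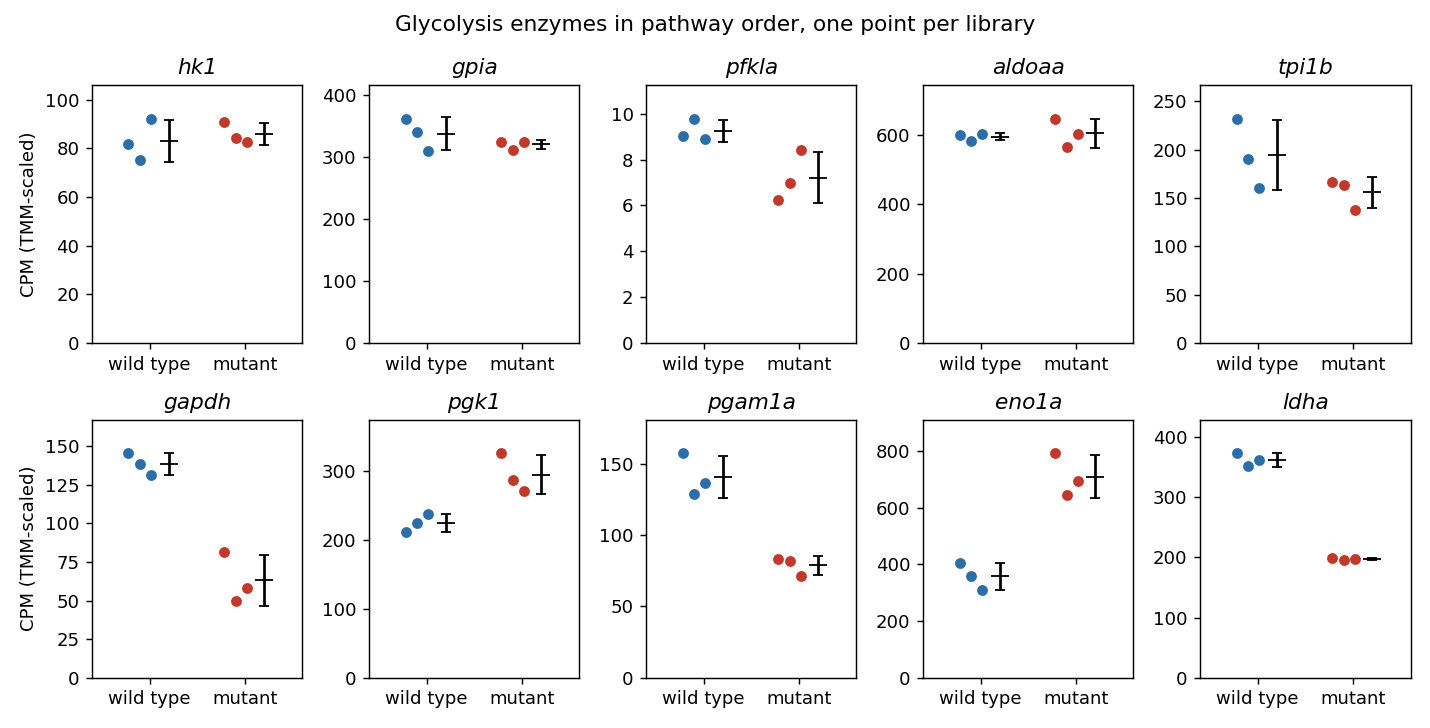
CPM (linear axis from 0, its own scale for each gene) of the 10 members in pathway order, with 1 point per library and the mean ± SD (n = 3) beside the points, wild type in blue and mutant in red. The groups stand apart for gapdh, pgk1, pgam1a, eno1a and ldha, and narrowly for pfkla, and they overlap for the other members.

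Hexokinase phosphorylates glucose and so commits it to the cell. The hexokinase gene hk1 (ENSDARG00000039452) was at 90.8, 84.1 and 82.6 CPM in mutants and at 81.7, 75.3 and 92.2 CPM in wild type. The wild-type libraries included both the lowest and the highest of the 6 values. The log2 fold change was 0.05 (SE 0.09, 95% interval -0.16 to 0.25, edgeR adjusted p = 0.717), and its sign turned to -0.058 without scaling factors.

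The next enzyme, glucose phosphate isomerase, converts the product of hexokinase into a fructose phosphate. Its gene gpia (ENSDARG00000012987) was at 324, 311 and 324 CPM in mutants, inside the wild-type values of 362, 340.3 and 309 CPM. The log2 fold change was -0.07 (SE 0.08, 95% interval -0.25 to 0.10, edgeR adjusted p = 0.482).

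Phosphofructokinase catalyses the main regulated step, and pfkla encodes a liver-type subunit. pfkla (ENSDARG00000060504) had the lowest counts of the set, with 278 to 493 counts per library. Its level was 6.25, 6.97 and 8.42 CPM in mutants against 9.03, 9.79 and 8.91 CPM in wild type. Every mutant value was below every wild-type value, by a narrow margin for mutant replicate 3. The log2 fold change was -0.36 (SE 0.14, 95% interval -0.68 to -0.03) and the edgeR adjusted p was 0.0854. Without mutant replicate 3 it was -0.48 with an edgeR adjusted p of 0.0424, so that this library decided on which side of the threshold pfkla fell.

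Aldolase cleaves the phosphorylated sugar into triose phosphates. aldoaa (ENSDARG00000011665) was at 648, 564 and 604 CPM in mutants, a range that enclosed the wild-type values of 600.3, 585 and 603 CPM. The log2 fold change was 0.02 (SE 0.07, 95% interval -0.14 to 0.18, edgeR adjusted p = 0.828), and its sign turned to -0.082 without scaling factors and to -0.0073 with upper-quartile factors.

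Triosephosphate isomerase interconverts the trioses so that both can go on down the pathway. tpi1b (ENSDARG00000040988) was at 166, 163 and 138 CPM in mutants and at 232, 190.0 and 160.5 CPM in wild type. The groups overlapped, since wild type replicate 3 lay below mutant replicates 1 and 2. The log2 fold change was -0.32 (SE 0.14) with an edgeR adjusted p of 0.115. It passed the threshold without wild type replicate 3 (-0.44, edgeR adjusted p = 0.0244) and without scaling factors (-0.42, edgeR adjusted p = 0.032).

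GAPDH oxidises the triose phosphate and produces NADH. gapdh (ENSDARG00000043457) was at 81.6, 49.8 and 58.1 CPM in mutants and at 145, 138 and 131 CPM in wild type. All 3 mutant libraries were below all 3 wild-type libraries, and mutant replicate 1 stood above the other two mutants. Mean levels were 63.2 ± 16.5 CPM (SD, n = 3) in mutants and 138 ± 7.11 CPM in wild type. gapdh thus fell 2.19-fold (log2 fold change -1.13, SE 0.17, edgeR adjusted p = 0.00213). It is the member with the widest mutant spread, with a coefficient of variation of 26.1% in mutants and 5.14% in wild type.

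Phosphoglycerate kinase makes ATP from the product of GAPDH. pgk1 (ENSDARG00000054191) was at 326, 288 and 272 CPM in mutants and at 212, 224 and 238 CPM in wild type. The lowest mutant library exceeded the highest wild-type library. pgk1 rose 1.31-fold (log2 fold change 0.39, SE 0.09, edgeR adjusted p = 0.00895), from 225 ± 13.1 CPM to 295 ± 28.1 CPM (SD, n = 3).

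Phosphoglycerate mutase moves the phosphate within the triose acid. pgam1a (ENSDARG00000005423) was at 83.5, 81.8 and 71.1 CPM in mutants and at 157, 129 and 136 CPM in wild type. The groups did not come near each other. pgam1a fell 1.79-fold (log2 fold change -0.84, SE 0.10, edgeR adjusted p = 0.000353), from 141 ± 14.7 CPM to 78.8 ± 6.75 CPM (SD, n = 3).

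Enolase forms phosphoenolpyruvate. eno1a (ENSDARG00000022456) was at 793, 645 and 693 CPM in mutants and at 407, 358 and 311 CPM in wild type. Even the lowest mutant library lay well above the highest wild-type one. eno1a rose 1.98-fold (log2 fold change 0.99, SE 0.11, edgeR adjusted p = 0.000346), the largest increase among the members.

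Lactate dehydrogenase A favours the reduction of pyruvate to lactate in vertebrates. ldha (ENSDARG00000101251) was at 199, 196 and 196 CPM in mutants and at 373, 351 and 361 CPM in wild type. The groups were far apart, and the mutant libraries lay closer together than for any other member, with a coefficient of variation of 0.847% beside 3.00% in wild type. ldha fell 1.84-fold (log2 fold change -0.88, SE 0.06, edgeR adjusted p = 3.07e-05), the smallest adjusted p of the set.

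**Figure D2:**
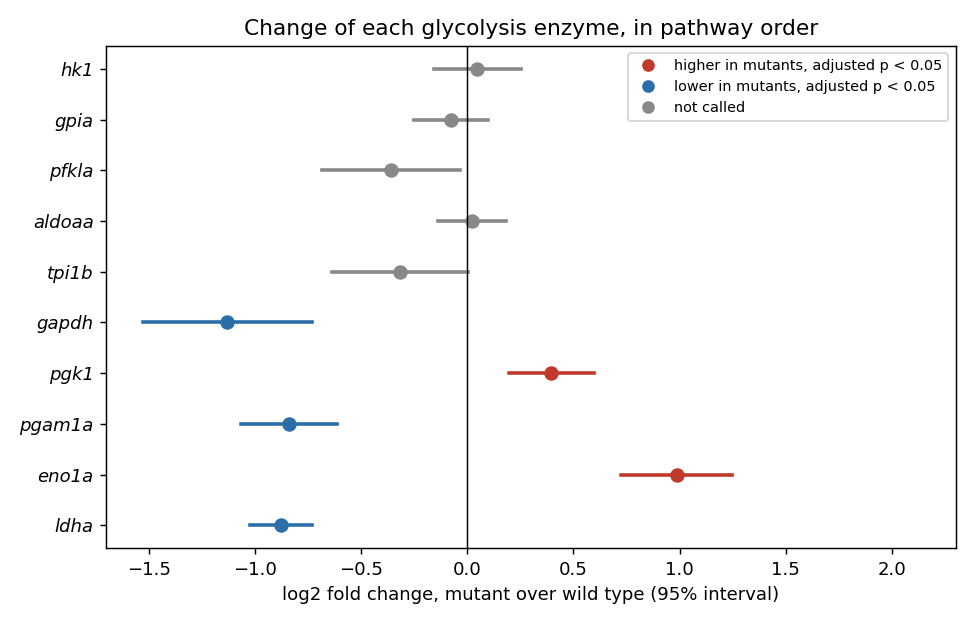
Log2 fold change of mutant over wild type (x axis) for the 10 members in pathway order from top to bottom, with 95% intervals from edgeR as bars. The intervals of hk1, gpia, aldoaa and tpi1b include 0, that of pfkla ends at -0.03, and those of gapdh, pgk1, pgam1a, eno1a and ldha lie away from 0 on alternating sides.

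The calls for gapdh, pgk1, pgam1a, eno1a and ldha held in each of the 15 other settings and sample subsets that were run. Over these settings the log2 fold change ranged from -1.35 to -0.98 for gapdh and from 0.29 to 0.46 for pgk1. It ranged from -0.94 to -0.75 for pgam1a, from 0.88 to 1.08 for eno1a and from -0.98 to -0.86 for ldha. Groups did not overlap for 6 of the 10 members, these 5 and pfkla, beside 50.5% of all genes tested. Of these 6, pgk1 and eno1a lay higher in mutants, beside 25.8% of all genes, and 4 lay lower, beside 24.7%.

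Marker genes of blood lineages also differed between the groups, beside 33.9% of all genes tested that were called. All 12 erythroid markers rose, from a summed 7913 to 12729 CPM in wild type to 29276 to 43485 CPM in mutants. Of the 8 neutrophil markers tested, 6 rose and 2 fell, with sums of 23126 to 23963 CPM in wild type and 35872 to 38270 CPM in mutants. All 9 T cell markers fell, from 922 to 1024 CPM to 207 to 286 CPM, and all 7 B cell markers fell, from 653 to 714 CPM to 169 to 203 CPM. Most of the T cell sum in every library came from ccr9a, which the study also lists for B cells. All 6 thrombocyte markers rose. Of 9 macrophage markers 3 rose (marco, csf1ra and ctsk) and 2 fell (mpeg1.1 and cd74a). The part of these shifts in the levels of the glycolysis enzymes was not tested, and in bulk RNA fewer cells of a type and less RNA per cell cannot be told apart.

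For most steps the member is not the only gene, so its share of all counts of the step was computed within each library. Such a share does not depend on how libraries were scaled, but it is a share of counts and not per transcript length. In the steps of GAPDH, phosphoglycerate mutase and lactate dehydrogenase the share of the member fell, and in the enolase step it rose. Of the most abundant paralogs of these steps only ldhba rose, while gapdhs, pgam1b and eno3 did not pass the test. The shares did not overlap between groups for 7 of 9 members. Those of gpia, pfkla, tpi1b, gapdh, pgam1a and ldha were lower in mutants, and that of eno1a was higher. For levels, the groups did not overlap in 50.5% of all genes tested, and no such background was computed for shares. The shares of gpia and tpi1b shifted by only -0.51 and -0.99 percentage points, against paralogs with few counts. An exact two-sided permutation test over the 6 libraries gave p = 0.1 for each of the 7, the smallest value that 3 against 3 allows, and the Benjamini-Hochberg value over 9 shares was 0.129.

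The largest shift was at lactate dehydrogenase. ldha took 32.5, 33.9 and 33.2% of the counts of its step in mutants and 62.1, 54.0 and 57.3% in wild type. ldhba, whose B-type subunit is known in vertebrates for favouring the oxidation of lactate, was at 413, 381 and 396 CPM in mutants and at 227, 299 and 269 CPM in wild type. ldhba thus rose in every mutant library, by 0.58 on the log2 scale (SE 0.10, edgeR adjusted p = 0.00271), while ldha fell. The summed level of the step was 594 ± 17.5 CPM in mutants against 627 ± 25.2 CPM in wild type (SD, n = 3), and its groups overlapped.

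At GAPDH the share of gapdh in the counts of its step was 8.22, 5.49 and 6.37% in mutants and 14.5, 13.9 and 13.4% in wild type. gapdhs was at 911, 857 and 855 CPM in mutants and at 859, 858 and 848 CPM in wild type, and its log2 fold change of 0.03 (SE 0.06) did not pass the test (edgeR adjusted p = 0.72). Summed over both genes the step was at 937 ± 47.7 CPM in mutants against 993 ± 12.7 CPM in wild type, and its groups overlapped.

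At phosphoglycerate mutase the share of pgam1a was 63.4, 61.8 and 56.9% in mutants and 76.2, 74.0 and 73.6% in wild type. Its paralog pgam1b was at 50.7 ± 2.80 CPM in mutants against 47.4 ± 2.37 CPM in wild type (SD, n = 3), a log2 fold change of 0.10 that did not pass the test (edgeR adjusted p = 0.362). The summed level of the step was 129.7 ± 4.16 CPM in mutants against 189 ± 16.4 CPM in wild type. Here the groups did not overlap (exact permutation p = 0.1).

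At enolase the share of eno1a was 59.06, 53.5 and 55.0% in mutants and 42.1, 39.7 and 37.7% in wild type. eno3, known as the muscle enolase of vertebrates, was at 548 ± 7.67 CPM in mutants against 537 ± 23.9 CPM in wild type, with a log2 fold change of 0.03 (edgeR adjusted p = 0.744). The summed enolase level was 1270.0 ± 68.7 CPM in mutants against 898 ± 71.0 CPM in wild type, with no overlap (exact permutation p = 0.1).

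**Figure D3:**
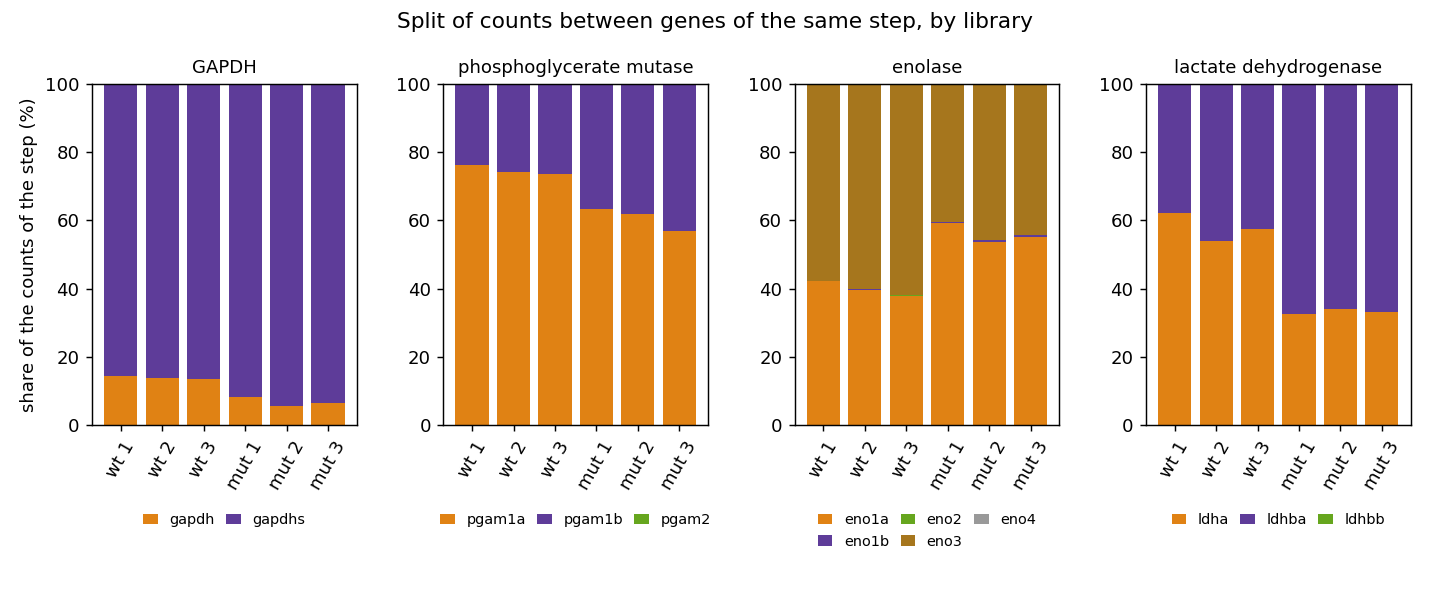
Share of the counts of a step (y axis, percent, stacked to 100) taken by each gene of the step in the 3 wild-type (wt) and 3 mutant (mut) libraries. ldha drops from 57.8 ± 4.07% to 33.2 ± 0.700%, gapdh from 13.9 ± 0.543% to 6.69 ± 1.39% and pgam1a from 74.6 ± 1.42% to 60.7 ± 3.37%, while eno1a climbs from 39.8 ± 2.20% to 55.8 ± 2.88% (SD, n = 3).

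In the early steps the shares of hk1 and aldoaa overlapped between groups, and those of gpia, pfkla and tpi1b did not. hk1 took 34.7 ± 2.94% of the hexokinase counts in mutants and 37.2 ± 1.85% in wild type (exact permutation p = 0.6). aldoaa took 78.4 ± 0.870% of the aldolase counts in mutants and 78.5 ± 0.765% in wild type (exact permutation p = 1). pfkla took 4.48 ± 0.686% of the phosphofructokinase counts in mutants and 5.88 ± 0.313% in wild type, lower in all 3 mutants (exact permutation p = 0.1). gpia took 99.4 ± 0.174% of its step in mutants and 99.96 ± 0.0656% in wild type, and tpi1b took 98.8 ± 0.396% and 99.8 ± 0.182%, both lower in all 3 mutants (exact permutation p = 0.1 for each). Paralogs can share reads where their sequences are alike, which was not examined for the paralogs of any step, pgam1a and pgam1b included. All shares carry this limit, and the low counts of gpib, tpi1a and eno1b are uncertain.

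**Figure D4:**
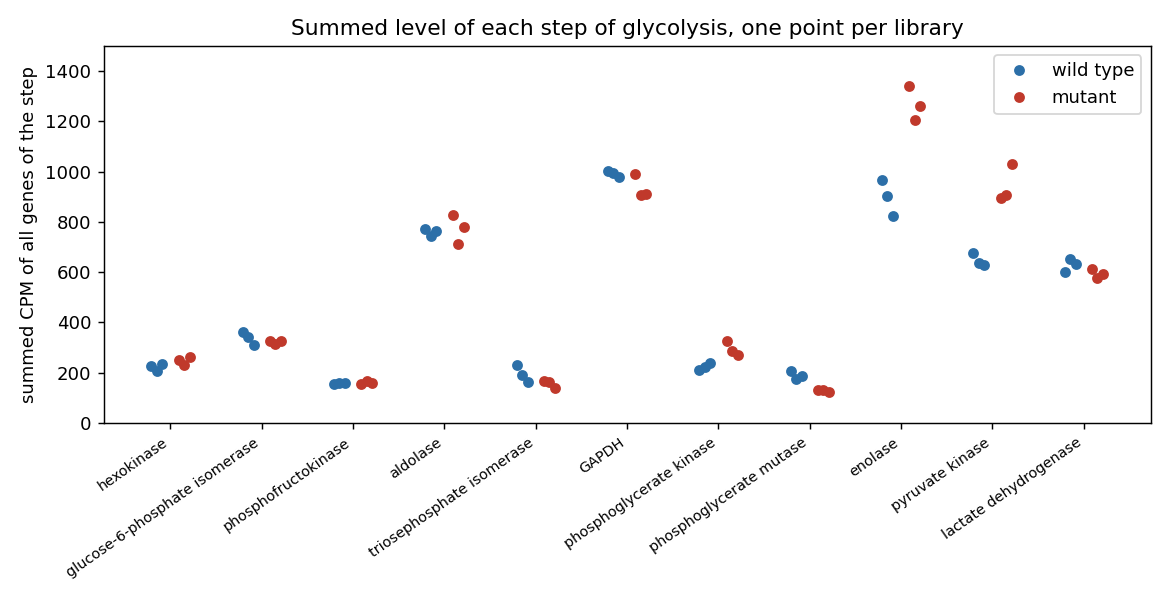
Summed CPM of all matched genes of each step (linear axis from 0, not per transcript length) in pathway order, with 1 point per library, wild type in blue and mutant in red. Phosphoglycerate kinase, enolase and pyruvate kinase are higher in all 3 mutants, phosphoglycerate mutase is lower in all 3, and the groups overlap at the other steps. The exact permutation p was 0.1 for each step without overlap, the smallest that 3 against 3 allows. For single genes the groups did not overlap in 50.5% of all genes tested, and no such background was computed for sums.

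Pyruvate kinase, which closes the pathway between enolase and lactate dehydrogenase, has no gene in the set. pkma, which took nearly all counts of the step, was at 893, 907 and 1030.1 CPM in mutants and at 675, 637 and 626 CPM in wild type. All mutants were above all wild-type libraries, and pkma rose by 0.55 on the log2 scale (SE 0.08, edgeR adjusted p = 0.000862). Of the 22 tested paralogs of the glycolytic steps 8 rose and 2 fell, that is 45.5% beside 33.9% of all genes, with a median log2 fold change of 0.16. Most of these calls were for genes with a mean below 10 CPM. These were gpib, tpi1a, eno4, eno1b and aldoab, which rose, and pfklb and eno2, which fell. The more abundant gapdhs, eno3, hk2 and aldocb did not pass the test. Among the paralogs above 10 CPM, pfkpb, a platelet-type phosphofructokinase, rose by 0.32 (edgeR adjusted p = 0.0457), a call that was lost in 8 of 15 other settings.

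Glucose enters and lactate leaves the cell through membrane carriers. Of the 8 carrier genes tested 1 rose and 2 fell (37.5% called, beside 33.9% of all genes), with a median log2 fold change of -0.63. The summed level of all 11 matched carrier genes was 403 to 590 CPM in mutants against 403 to 514 CPM in wild type. slc16a3a, a gene for the lactate exporter MCT4, was at 10.1, 10.7 and 11.97 CPM in mutants and at 27.1, 26.1 and 21.9 CPM in wild type. It fell 2.29-fold (log2 fold change -1.19, SE 0.12, edgeR adjusted p = 0.000134). Its more abundant paralog slc16a3b, named after its values were seen, was at 30.8 ± 13.3 CPM in mutants against 67.6 ± 19.5 CPM in wild type. The log2 fold change of slc16a3b was -1.13 and did not pass the test (edgeR adjusted p = 0.0604). slc2a1b, a GLUT1-type glucose carrier, was at 17.5, 13.2 and 12.2 CPM in mutants against 7.38, 5.64 and 8.03 CPM in wild type, and it rose 2.03-fold (edgeR adjusted p = 0.00289). The carrier gene with the most counts, slc2a3b, was at 273 ± 73.6 CPM in mutants against 205 ± 33.1 CPM in wild type, with a log2 fold change of 0.41 that did not pass the test (edgeR adjusted p = 0.168).

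Beyond pyruvate, the citrate cycle oxidises acetyl-CoA in mitochondria. Of its 15 genes tested 6 rose, 1 fell and 8 did not pass the test, that is 46.7% called beside 33.9% of all genes, and at an adjusted p below 0.01 only 4 were called. ogdhb, a subunit of the oxoglutarate dehydrogenase complex, was at 131, 122 and 125 CPM in mutants against 50.8, 45.0 and 53.5 CPM in wild type. It rose 2.54-fold (log2 fold change 1.34, SE 0.08, edgeR adjusted p = 1.36e-05). Its paralog ogdha, named after its values were seen, was at 85.2 CPM in mutants against 93.2 CPM in wild type. The log2 fold change of ogdha was -0.13 and did not pass the test (edgeR adjusted p = 0.218). sucla2 and suclg2, subunits of succinyl-CoA synthetase, rose by 0.69 and 0.49 (edgeR adjusted p = 0.00022 and 0.00216). mdh2, the mitochondrial malate dehydrogenase and the gene of the list with the highest CPM, had a log2 fold change of -0.13 (edgeR adjusted p = 0.146). Of the 8 genes tested for pyruvate import and pyruvate dehydrogenase 7 did not pass the test and pdha1a rose, by 0.36 (edgeR adjusted p = 0.00541), while pdhb was at 0.22 (edgeR adjusted p = 0.118).

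Among 15 regulators of glycolytic flux 4 rose and 3 fell (46.7% called, beside 33.9%). pdk1, a kinase that switches pyruvate dehydrogenase off, was at 38.3, 33.8 and 34.4 CPM in mutants and at 22.5, 21.7 and 23.2 CPM in wild type and rose 1.58-fold (log2 fold change 0.66, SE 0.09, edgeR adjusted p = 0.000597). Its relative pdk2b rose by 0.52 (edgeR adjusted p = 0.0465), a call lost in 8 of 15 other settings. The 3 that fell were tigara (-1.13, edgeR adjusted p = 0.00317), pdk2a (-0.81, edgeR adjusted p = 0.0262) and pfkfb2a (-0.44, edgeR adjusted p = 0.0494). The remaining genes that rose, pfkfb1 and pdk3b, were at only 0.458 and 0.436 CPM in mutants. Of these genes tigara, pdk2a, pfkfb2a, pfkfb1 and pdk3b were named after their values were seen.

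The pentose phosphate pathway draws on the product of hexokinase to make NADPH and ribose. Of its 7 genes tested 2 rose and 1 fell (42.9% called, beside 33.9%). pgd, an NADPH-forming dehydrogenase, was at 332 ± 14.7 CPM in mutants against 251 ± 17.6 CPM in wild type (SD, n = 3), a log2 fold change of 0.41 (edgeR adjusted p = 0.00418). rpia, a ribose phosphate isomerase, fell by 0.44 (edgeR adjusted p = 0.0261) and lost its call in 5 of 15 settings.

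Gluconeogenesis makes glucose from smaller molecules, and the glycogen enzymes store glucose and release it. Of 14 genes tested 1 rose and 3 fell (28.6% called, beside 33.9%), and the gene that rose was pygl, a glycogen phosphorylase at 0.549 CPM in mutants against 0.129 CPM in wild type, named after its values were seen. pck2, a mitochondrial phosphoenolpyruvate carboxykinase, fell by 0.52 (edgeR adjusted p = 0.00667). fbp1a, which reverses phosphofructokinase, fell by 0.42 (edgeR adjusted p = 0.0219), and pgm1, which links glycogen to the pathway, fell by 0.32 (edgeR adjusted p = 0.0274). The calls for fbp1a and pgm1 were lost in 5 and 6 of 15 settings. pygb, a glycogen phosphorylase and the gene of the list with the highest CPM, had a log2 fold change of 0.37 (edgeR adjusted p = 0.0895).

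Several glycolytic genes are known targets of hypoxia-inducible factors in vertebrates, and 26 genes of the hypoxia response were tested, of which 8 rose and 4 fell (46.2% called, beside 33.9% of all genes), with a median log2 fold change of 0.27. vegfab, a vascular growth factor, was at 23.8, 23.7 and 44.1 CPM in mutants and at 1.89, 1.16 and 1.99 CPM in wild type. It rose 18.1-fold (edgeR adjusted p = 0.000198). Its paralog vegfaa, named after its values were seen, was at 1.94 CPM in mutants against 2.67 CPM in wild type. The log2 fold change of vegfaa was -0.46 and did not pass the test (edgeR adjusted p = 0.144). hif1al2, a member of the HIF alpha family, rose 4.56-fold to 186 ± 34.8 CPM (edgeR adjusted p = 3.6e-05), and igfbp1a, an IGF-binding protein, rose 4.19-fold to 486 ± 121 CPM (edgeR adjusted p = 0.000192). hif1al had a log2 fold change of 0.22 (edgeR adjusted p = 0.296). ddit4, a stress-induced inhibitor of mTOR signalling that was picked after its values were seen, was at 14.6 ± 4.47 CPM in mutants against 47.2 ± 11.1 CPM in wild type and fell 3.23-fold (edgeR adjusted p = 0.00275). These differences and those of the glycolysis enzymes come from the same 3 mutant and 3 wild-type libraries. A link between the hypoxia genes and the glycolysis enzymes was not tested.

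**Figure D5:**
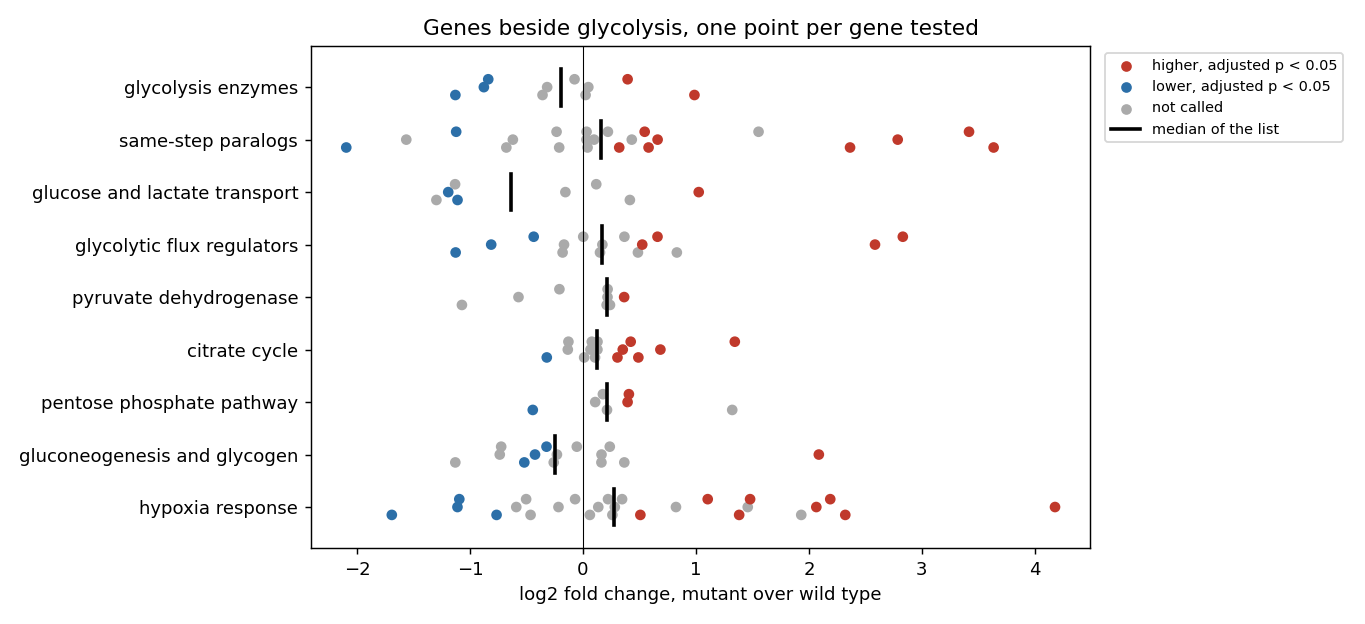
Log2 fold change of mutant over wild type (x axis) for every tested gene of each list, with 1 point per gene, red for genes that rose, blue for genes that fell and grey for the rest, and a black bar at the median of the list. The median is -0.20 for the glycolysis enzymes, -0.63 for the carriers and 0.27 for the hypoxia genes. The summed level of the carriers overlapped between the groups.

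Over the 8 lists of related genes 47 of 115 genes were called, or 40.9% beside 33.9% of all genes, 31 higher and 16 lower, with a median log2 fold change of 0.15. The same erythroid, neutrophil and lymphoid marker shifts stand beside these counts, and their part was not tested. The named genes whose levels over the 6 libraries lay nearest to the mean profile of the 10 members, by root mean square difference in centred log2 CPM, were CMIP (0.0291), susd1 (0.0305), PAXBP1 (0.0314), NOB1 (0.0315) and RPS2 (0.0350). They were chosen for this likeness, so their levels are no further result, and of the 5 only RPS2 was called. The mean profile averages members that rose and members that fell, so likeness to it is not likeness to each member.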

How the data were processed

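Per the labels and the study's methods, the authors aligned paired-end reads of stranded, poly-A selected libraries with STAR 2.5.2b-1, counted them per gene with featureCounts 1.6.0.1 on the Ensembl Zv10.85 annotation, and deposited raw counts for 32105 genes with no normalization. The methods state default parameters for all tools unless noted, under which featureCounts does not use the strand, so reads of overlapping antisense genes cannot be told apart. The authors tested with DESeq2 2.11.40.1, and none of their test results were used.

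Genes passing filterByExpr (minimum count 10) were scaled by TMM and tested with edgeR 4.0.16 (robust quasi-likelihood, no covariate, mutant against wild type, all 6 libraries), with Benjamini-Hochberg adjustment over 17828 genes and a threshold of 0.05. The SE is the log2 fold change over the square root of F. The script was tested on simulated data. R 4.3.3, limma 3.58.1, DESeq2 1.42.0 and matplotlib 3.10.9 were used. Intervals and p-values cover the spread between these 6 libraries, described as individual fish, and depth was 37390073 to 53279243 counts per library.

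The table gives Ensembl identifiers. Of 256 listed genes 238 were matched, 163 by symbol, 29 by names the study pairs with identifiers, 45 by neighbouring genes in the GRCz12tu order and 1 by its name without the paralog letter, and 18 were not matched. For gpia, pfkla, aldoaa, tpi1b and eno1a 2 identifiers carried the name without the paralog letter. The study's names settled all of these but pfkla, which was placed by 11 shared neighbours. The members and lists were chosen with earlier results of these data known. Named genes were every member, of each related list the 3 largest changes past the threshold at 10 CPM or more and the gene with the highest mean, and the 5 nearest profiles at 50 CPM or more. Transcript lengths were not used here, so shares of a step and the highest gene of a list rest on counts, not on transcripts. Replicate numbers are shared between the groups, but the labels do not say that they mark a shared batch or clutch. Alternatives were other scaling factors, other filters, DESeq2, the replicate number as a block, a threshold of 0.01 and leaving out each library. Leaving out pfkla was added after the data were seen. The values of 1 listed gene are not reported here.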

Additional observations from a re-analysis of the deposited data

How the results depend on the processing

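The number of members called was 5 or 6 in the 16 alternatives run, 2 of them higher in each, and gapdh, pgk1, pgam1a, eno1a and ldha kept their calls in all 15 fits. Without pfkla, an alternative added after the data were seen, the number was bound to stay at 5, since pfkla was not called in the main fit. The sixth call was tpi1b without scaling factors, with the replicate block (-0.31, edgeR adjusted p = 0.0437) and without wild type replicate 3, and pfkla without mutant replicate 3. The member median of -0.20 moved to -0.30 without scaling factors and ranged from -0.26 to -0.10 when single libraries were left out, with -0.10 without wild type replicate 1. Without scaling factors the median of all genes moved from -0.01 to -0.11, and 2428 genes were called higher and 3742 lower, against 3122 and 2917. Signs turned for hk1 (-0.058 without scaling factors, and -0.019 to 0.13 with single libraries left out, negative without wild type replicate 2) and aldoaa (-0.082 without scaling factors, -0.0073 with upper-quartile factors, and -0.022 to 0.074 with single libraries left out, negative without mutant replicate 1), with edgeR adjusted p of 0.361 to 0.947 in these fits. The cause was not tested.

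At an adjusted p below 0.01 the related genes called were 28 instead of 47, and all genes called 3419 (1834 higher, 1585 lower) instead of 6039. Leaving out single libraries gave 39 to 47 related genes and 4587 to 5978 genes in all. At 0.01, 5 paralogs, 3 flux regulators, 1 pentose phosphate gene, 1 gluconeogenesis gene and 4 citrate cycle genes were called. With a library left out, the flux regulators fell to 4 without mutant replicate 1, without mutant replicate 3 or without wild type replicate 2. The pentose phosphate genes fell to 1 without mutant replicate 1, and the gluconeogenesis genes to 1 without mutant replicate 2 and 2 without mutant replicate 3. The pyruvate dehydrogenase list went to 2 without scaling factors and without wild type replicate 3. With the replicate number as a block 5370 genes were called, of which 5126 were among the 6039. Deviations of same-numbered libraries correlated at 0.0787, 0.128 and 0.0548. Mutant replicates 2 and 3 correlated best with the wild-type library of their own number. Mutant replicate 1 correlated slightly better with wild type replicate 3 (0.0805) than with wild type replicate 1. All of these correlations were low, so the numbers were not taken to pair the libraries, but the values do not decide whether they do. Shares of steps do not depend on scaling and were rerun in only 7 alternatives, with single libraries left out among them. They kept their direction there except that of aldoaa, which ranged from -0.62 to 0.22 percentage points. With 3 libraries a group, the changes of hk1, gpia and aldoaa did not pass the test, and the smallest change that could be detected was not computed.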
